A study of Mus musculus with 10 samples.

Results

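The T-cells cluster is cluster 6 of the 9 cell clusters that the authors named in the ascites of 1 mouse, and its members here are the 220 genes listed under that name in the authors' deposited table of 1991 marker entries. The entries hold 1596 distinct names, so the cluster took 13.8% of them, and 0.4% of the 54949 genes that the table's p-value adjustment counts. The mouse was of the C57BL/6 strain. The study also sequenced the DNA of ovarian tumors, which is not used here. The label ties the ascites to 1 of these tumors, gives Lkb1 as deleted and gives no Pax8 status. The tumors were raised by electroporating the fallopian tube epithelium in vivo with plasmids for Cas9, guide RNA and Cre, whose target genes the labels do not name. The ascites, the fluid that gathers in the abdomen, was freed of red blood cells, and its cells were profiled with a 3' droplet assay (Chromium Single Cell 3' kit V2). There was 1 library, with no untreated ascites beside it. No value below therefore has a replicate error or a test, and depth and cell number per cluster are unknown here.

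T cells recognise antigen with a receptor made of paired variable chains, alpha with beta or gamma with delta. The chains signal through the CD3 subunits and the zeta chain, whose tails are phosphorylated by the kinase Lck and recruit the kinase Zap70, which acts on the adaptor Lat. Naive T cells keep the transcription factors Tcf7 and Lef1 and the receptor for interleukin 7. Activated cells switch on costimulatory receptors and cytokines, and long exposure to antigen adds inhibitory receptors such as Pdcd1. Natural killer (NK) cells and innate lymphoid cells share many surface and granule genes with T cells but have no rearranged antigen receptor. T cells and macrophages are common in the ascites of ovarian cancer.

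Each value given here is an average log fold change of the cluster, as the authors' deposited table gives it, read as a natural log, and a fold is its exponential. The lowest T-cells entry stood at 0.50, a fold of 1.66, the median at 0.87, a fold of 2.38, and the highest at 2.96. A gene without an entry can be weaker than this limit, or as strong in other clusters, so a missing entry does not show that a gene was off. The 5 lowest entries in the authors' deposited table were Rpl7a (0.52), St6galnac3 (0.52), Il17re (0.51), Lamb3 (0.51) and Rpl10 (0.50).

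The cluster listed most of the general T cell genes searched for. Of 20 genes that mark T cells in general, 16 were T-cells markers, and 15 of these were listed for no other cluster. The exception was Cd2, an adhesion receptor of T cells, at 0.93 in T-cells and 0.90 in B-cells in the authors' deposited table. The list members without an entry were Cd5, Cd28, Cd27 and Ubash3a. Few genes on the lists for other cells had a T-cells entry. Of 143 genes on 15 lists for B cells, plasma cells, MHC class II, macrophages, monocytes, neutrophils, 2 kinds of dendritic cell, mast cells, erythroid cells, platelets, epithelium, mesothelium, fibroblasts and cycling cells, 2 were T-cells markers. They were Blk (0.86), on the B cell list, and Thy1 (2.18), on the fibroblast list and itself a classic T cell marker in mice. All of these lists, the general T cell list among them, were chosen with earlier results of these data known. The cluster was also already named T-cells, so the 16 of 20 describes it and does not test its name. Several of the 15 lists for other cells hold mostly genes listed for other clusters only, such as 15 of 16 B cell genes and 13 of 14 macrophage genes. A low count was thus partly set by that choice and does not measure how pure the cluster was. The labels do not say whether doublets were removed.

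Parts of the antigen receptor made up 6 of the 10 leading markers, below Ccl5, a chemokine gene, which led at 2.96 in the authors' deposited table. Cd3g, Cd3e and Cd3d, the CD3 subunits, stood at 2.80, 2.19 and 2.19 in the authors' deposited table, which are folds of 16.4, 8.96 and 8.89. The zeta chain gene Cd247 was lower, at 1.07 in the authors' deposited table. The 10 receptor and CD3 chain genes among the markers were listed for no other cluster. Their median of 2.09 was the highest of the 15 roles into which the named markers were sorted. Roles were assigned after the values were seen and cover only genes with a T-cells entry. Over the whole cluster 10 markers reached 2, and 8 of them had no entry elsewhere. The other 2 were Ccl5 (2.96), also listed for the cluster Macrophages (3) at 0.87, and Bcl2 (2.08), a survival gene also listed for B-cells at 0.94, in the authors' deposited table. The plot of the 25 leading markers shows them with the value of the next cluster.

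**Figure D1:**
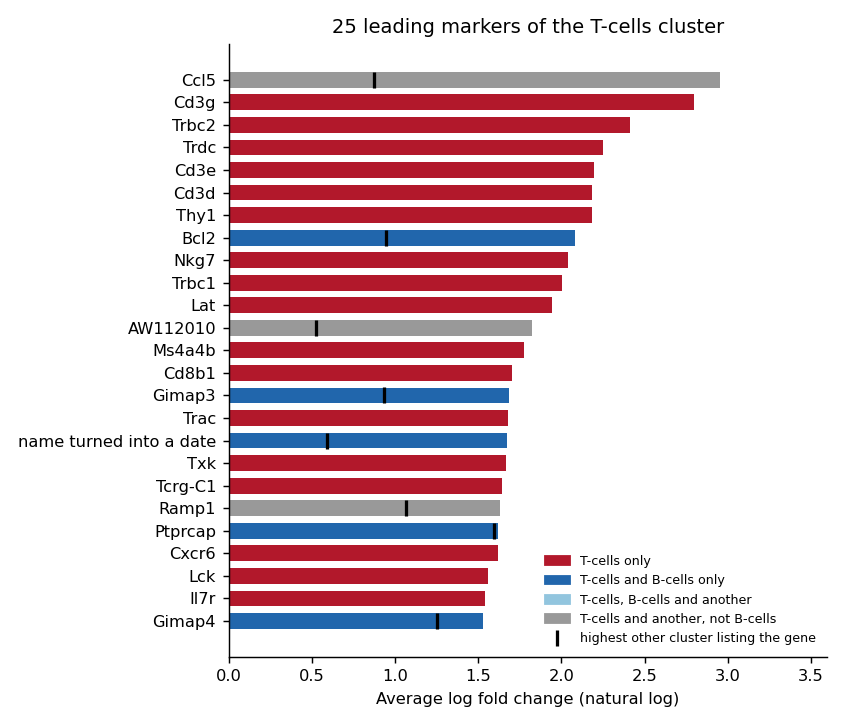
The 25 leading markers of the T-cells cluster by average log fold change (natural log, horizontal axis) in the authors' deposited table; bar colours give which other clusters list the gene, and a black tick the highest value among them. Ccl5 leads at 2.96, and Cd3g at 2.80 heads the genes listed for no other cluster.

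The 3 CD3 genes lie side by side on chromosome 9 in the mouse build GRCm38, within 40.1 kb from 44969572 to 45009663. The starts of Cd3g and Cd3d used here are 1355 bases apart and face away from each other. The promoter windows of the 3 genes and of Nkg7 are shown because these are the highest markers listed for no other cluster that have an entry in RefSeq's promoter table (GRCm38.p6). Each window runs 5' to 3' on the gene's strand, from 250 bases before the start to 50 after. Capitals mark the letters AGGAAG, a core of ETS factor sites, TGTGGT, a core of RUNX sites, and CTTTGA, a core of TCF and LEF sites, on either strand. None of these motifs contains another. Cd3g lies on the minus strand (chr9:44980382-44980681), Cd3e on the minus strand (chr9:45009562-45009861), Cd3d on the plus strand (chr9:44981536-44981835) and Nkg7 on the plus strand (chr7:43436888-43437187).
Cd3g: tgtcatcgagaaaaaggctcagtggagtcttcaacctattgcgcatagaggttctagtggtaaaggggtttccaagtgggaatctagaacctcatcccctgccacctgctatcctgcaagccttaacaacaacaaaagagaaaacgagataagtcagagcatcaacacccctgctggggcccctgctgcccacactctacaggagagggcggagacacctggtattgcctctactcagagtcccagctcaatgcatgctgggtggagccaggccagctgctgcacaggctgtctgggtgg
Cd3e: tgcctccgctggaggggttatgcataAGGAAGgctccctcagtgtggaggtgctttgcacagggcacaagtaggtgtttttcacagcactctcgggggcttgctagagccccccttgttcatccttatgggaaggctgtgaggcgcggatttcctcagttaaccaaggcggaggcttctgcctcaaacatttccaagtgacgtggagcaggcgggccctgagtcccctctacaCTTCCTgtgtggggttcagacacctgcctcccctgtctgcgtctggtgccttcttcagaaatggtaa
Cd3d: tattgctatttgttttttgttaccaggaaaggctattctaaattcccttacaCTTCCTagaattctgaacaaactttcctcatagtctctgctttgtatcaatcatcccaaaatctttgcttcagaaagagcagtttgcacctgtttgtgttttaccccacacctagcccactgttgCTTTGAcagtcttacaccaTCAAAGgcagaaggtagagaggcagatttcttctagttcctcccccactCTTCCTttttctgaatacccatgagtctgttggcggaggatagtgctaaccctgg
Nkg7: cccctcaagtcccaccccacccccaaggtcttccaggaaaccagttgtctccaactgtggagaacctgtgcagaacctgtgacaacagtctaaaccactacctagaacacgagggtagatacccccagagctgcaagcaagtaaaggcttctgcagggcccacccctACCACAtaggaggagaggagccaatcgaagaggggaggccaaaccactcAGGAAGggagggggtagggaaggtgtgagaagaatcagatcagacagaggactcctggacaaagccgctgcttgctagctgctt

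The Cd3d window held the ETS letters at 2 places, with first bases 198 and 5 before the start, and the TCF and LEF letters at 2 places, 73 and 54 before it. The Cd3e window held the ETS letters at 2 places, 224 and 17 before the start. Nkg7 had 1 ETS match, 34 before the start, and 1 RUNX match, 83 before it, and the Cd3g window held 0 matches. Such short motifs are frequent. Of the 27025 genes with a window in the table, 38.4% held the ETS letters, 18.9% the RUNX letters and 18.2% the TCF and LEF letters. A match is a string of letters and not a measured site. No share over the markers is given. Of the 90 markers that are no ribosomal protein and were listed for T-cells alone, 60 had a window, which is 66.7%.

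Constant genes of both receptor kinds were among the leading markers. For the alpha and beta chains Trbc2 stood at 2.41, a fold of 11.2, and Trac at 1.68, a fold of 5.36, with Trbc1 between them at a fold of 7.40, in the authors' deposited table. For the delta chain Trdc stood at 2.25, and for the gamma chain Tcrg-C1 at 1.64 and Tcrg-C4 at 0.76 in the authors' deposited table. Trdc was thus listed above Trac. Both lie in 1 locus on chromosome 14, Trdc from 54142851 to 54146108 and Trac from 54220521 to 54224198 (GRCm38), and the Trbc pair within 9.96 kb on chromosome 6. The Trbc genes are near copies of each other, as are several gamma constant genes, so their values depend on how reads were assigned. Of 12 gamma delta genes 4 had a T-cells entry, all 4 listed for no other cluster. The fourth is Cd163l1, a scavenger receptor known from mouse gamma delta T cells, at 1.23 in the authors' deposited table. Sox13, Il17a, the second gene of that scavenger family (5830411N06Rik) and the variable genes on the list had no T-cells entry. Il17re, a receptor subunit for interleukin 17C, was listed at 0.51, and Blk, a Src family kinase of B cells that mouse gamma delta T cells also use, at 0.86 in T-cells and 0.59 in B-cells in the authors' deposited table. Constant gene transcripts alone do not show a rearranged receptor. Values per cell are not used here, so whether 1 cell carried both kinds cannot be told apart from a mixture of cells.

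The co-receptor genes listed were those of CD8. Cd8b1 stood at 1.70 and Cd8a at 0.98 in the authors' deposited table, both listed for no other cluster and 56.4 kb from end to end on chromosome 6 (GRCm38). Of the 3 CD4 lineage genes, Cd4, Cd40lg and Zbtb7b, 0 were among the markers of any cluster. Runx3, a transcription factor of the CD8 lineage, was listed at 0.88 in the authors' deposited table. Of 10 genes of regulatory T cells 1 was listed, Ikzf2 (Helios) at 0.65 in the authors' deposited table, and Foxp3, Il2ra and Ctla4 were not among the markers.

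Of 30 receptor signalling genes, 4 of them CD3 and zeta chains, 16 had a T-cells entry, and without these chains 12 of 26 had one. Of the 16, 14 were listed for no other cluster, and the other 2, Ptprcap and Ptpn22, were shared with B-cells. The membrane adaptor Lat stood at 1.94, the Tec family kinase Txk at 1.67 and the Src family kinase Lck at 1.56 in the authors' deposited table. Skap1, an adaptor for integrin activation, was listed at 1.25, Zap70 at 0.93 and Rasgrp1, an activator of Ras, at 0.82 in the authors' deposited table. Genes that restrain the receptor were listed too. They were the phosphatase gene Ptpn22 (0.75), the inhibitory adaptor Sit1 (0.67) and the diacylglycerol kinase Dgka (0.55), in the authors' deposited table. The other members named on this list were Grap2, an adaptor (0.66), and Ptprcap, a partner of CD45 (1.62 in T-cells, 1.60 in B-cells), in the authors' deposited table. Fyn, Lcp2, Vav1, Prkcq and 10 more of the list were not markers of any cluster.

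**Figure D2:**
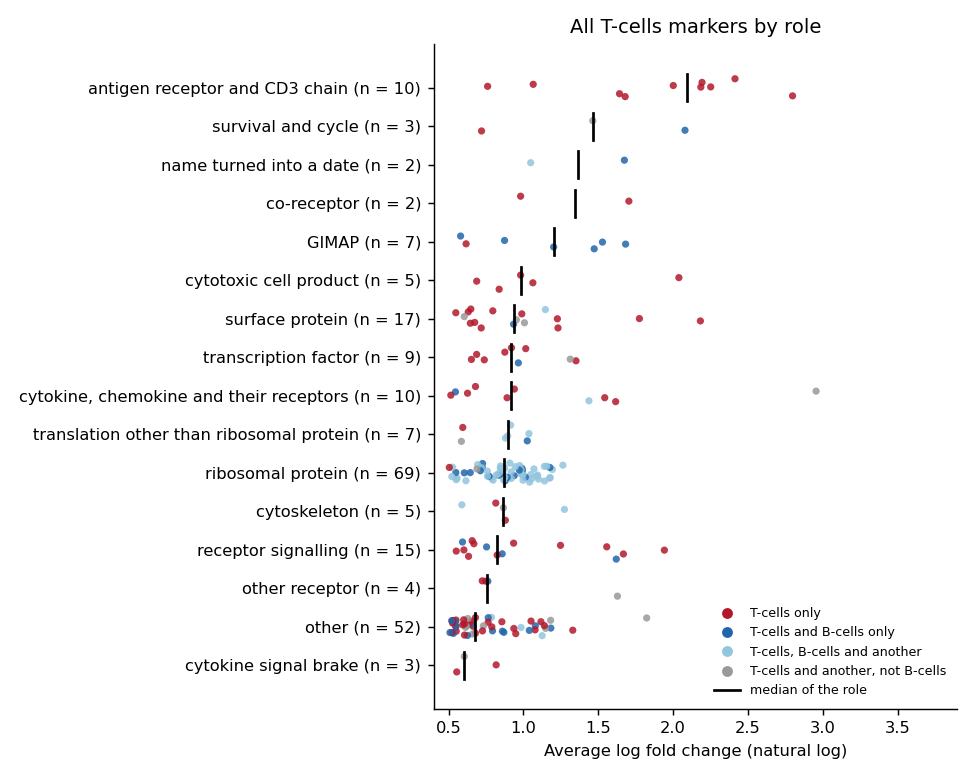
All 220 T-cells markers by role (vertical axis) and average log fold change (natural log, horizontal axis) in the authors' deposited table; each point is 1 gene, coloured by the other clusters that list it, and black bars are medians. Receptor and CD3 chains have a median of 2.09, all in the colour for T-cells only, while the 69 ribosomal protein genes have a median of 0.87 and mostly the colours for sharing with B-cells.

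Few genes on the NK lists had a T-cells entry, and T cells also use these. Of 21 NK receptor and identity genes 1 was listed, Il2rb, the beta chain of the interleukin 2 and 15 receptors, at 0.94 in the authors' deposited table. That is 4.76% of the list, beside 13.8% of the distinct names and 0.4% of the genes the adjustment counts. An unlisted gene may still have been expressed in these cells. Ncr1, Eomes, Tbx21, Itga2 and all of the Klr receptors on the list were not markers of any cluster. Of 4 adaptors of NK and innate lymphoid cells Hcst (DAP10) stood at 0.98 in T-cells, while Tyrobp (DAP12) was listed for the cluster named monocytes at 0.85, in the authors' deposited table. Of 15 cytotoxic granule and effector genes 3 had a T-cells entry. They were Ccl5 (2.96), the granule membrane gene Nkg7 (2.04) and the cathepsin gene Ctsw (1.06), in the authors' deposited table. Granzymes, perforin (Prf1), Fasl and Xcl1 had no entry in any cluster, and Ccl4 was listed for the cluster Macrophages (3) (0.63) in the authors' deposited table. Outside the lists, Cst7, which encodes cystatin F of cytotoxic cells, was at 0.84, and the surface genes Cd7 at 0.99 and Cd96 at 0.55, in the authors' deposited table, all listed for no other cluster.

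Entries on the lists for innate lymphoid cells were few in number, on lists of 6 to 20 genes, and each of these genes is also known from T cells. Of 6 genes of type 1 innate lymphoid cells (ILC1) the cluster listed Cxcr6 (1.62) and Il7r (1.54), in the authors' deposited table. Of 20 genes of type 2 cells (ILC2) it listed Id2 (1.31), Rora (0.69) and Icos (0.65), and of 11 genes of type 3 cells (ILC3) Cxcr6 alone, in the authors' deposited table. These are 33.3% of the ILC1 list, 15% of the ILC2 list and 9.09% of the ILC3 list, beside 13.8% of the distinct names. Il7r is also on the naive and central memory list below, and Icos on the activation list, so these entries do not tell the cell kinds apart. Gata3, Il1rl1, Il5, Il13, Areg, Il22 and Il23r were not markers of any cluster. Id2, an inhibitor of E proteins, was also listed for dividing cells at 1.15 in the authors' deposited table.

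**Figure D3:**
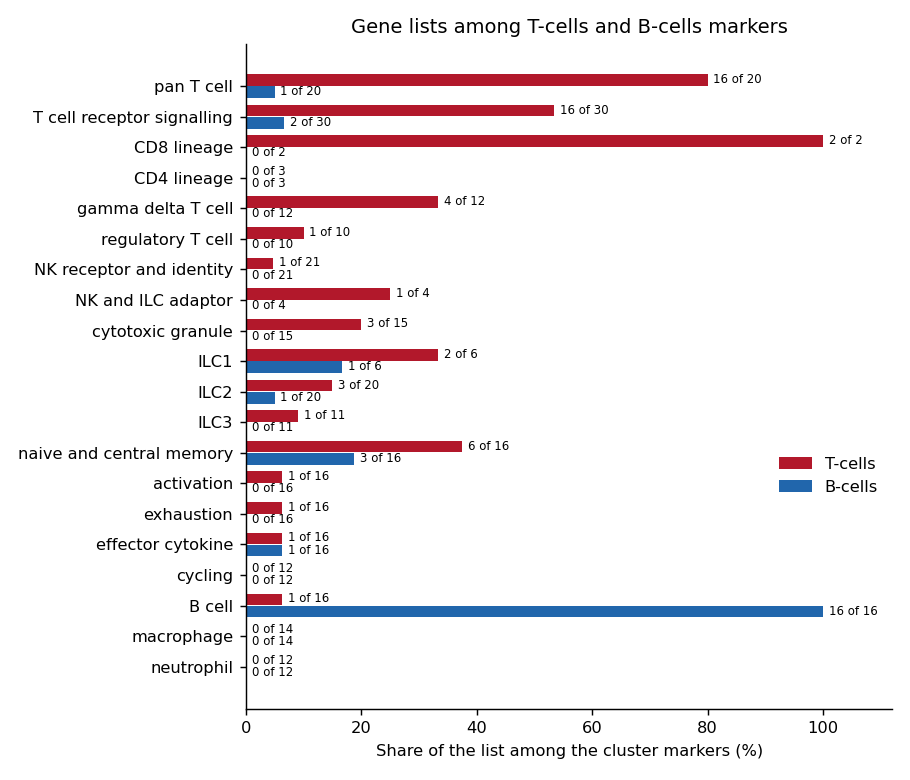
Share of each gene list found among the markers of T-cells (red) and B-cells (blue), in percent of the whole list, with counts beside the bars. Lists of general T cell and receptor signalling genes stand at 16 of 20 and 16 of 30 in T-cells, while lists for NK identity, activation and exhaustion hold 1 gene each.

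Genes of naive and central memory cells were better covered than genes of activation or exhaustion. Of 16 naive and memory genes 6 had a T-cells entry. Il7r, which keeps resting T cells alive, stood at 1.54, the transcription factors Lef1, Tcf7 and Satb1 at 1.35, 1.02 and 0.74, and Dapl1 at 1.05, in the authors' deposited table, all listed for no other cluster. The sixth, Ccr7, the receptor that guides cells into lymph nodes, was at 0.55 in T-cells and 0.72 in B-cells in the authors' deposited table. Klf2 and S1pr1, which keep T cells in circulation, were not markers of any cluster.

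Of 16 activation genes the cluster listed 1, the costimulatory receptor Icos (0.65), and of 16 exhaustion genes 1, Pdcd1, which encodes PD-1 (0.67), in the authors' deposited table. Both were listed for no other cluster. Havcr2, Lag3, Tigit, Ctla4, Tox and Entpd1 had no entry, and neither had Cd44, Cd69, Tnfrsf4 and Tnfrsf9. PD-1 is also switched on by recent activation, and 1 gene does not tell these states apart. Of 16 effector cytokines 1 was listed, Ltb, which encodes lymphotoxin beta, at 1.44 in T-cells, 1.56 in B-cells and 1.15 in monocytes in the authors' deposited table. Ifng, Tnf, Il2, Il4 and Il17a were not markers of any cluster. Of 12 cycling genes and of 23 immediate early and stress genes 0 were T-cells markers, although 9 and 12 of them were listed elsewhere. Of 23 interferon-stimulated genes the cluster listed Ly6a (1.15, with 1.19 in B-cells and 0.92 in the cluster Macrophages (3)) in the authors' deposited table. Of 13 MHC class I genes it listed Psmb8 (0.66, with 0.73 in dividing cells and 0.52 in the cluster Macrophages (3)) in the authors' deposited table.

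Receptors for cytokines and guidance cues made up a further group. Of 18 cytokine receptors 5 were T-cells markers, all listed for no other cluster: Il7r and Il2rb, given above, with Ifngr1 (0.89), Il18r1 (0.68) and Il27ra (0.63) in the authors' deposited table. The common gamma chain Il2rg was listed for B-cells (0.88) in the authors' deposited table. Of 21 trafficking genes 5 were T-cells markers, and beside Ccr7 they were the chemokine receptor gene Cxcr6 (1.62), the integrin chain gene Itgb7 (1.23), S1pr4 (0.76, with 0.55 in B-cells) and Selplg (0.60, with 0.92 in monocytes) in the authors' deposited table. Brakes of cytokine signalling were listed as well, Socs1 at 0.82, Socs2 at 0.60 and Cish at 0.55 in the authors' deposited table. Of 24 T cell transcription factors 8 were listed, and beside those named above they were Bcl11b (0.92), which secures T cell identity, and Ets1 (0.97, with 1.11 in B-cells), in the authors' deposited table. Tnfrsf25, a death receptor family member that costimulates T cells, was at 0.72, and Ms4a4b, a membrane protein of T cells, at 1.77 in the authors' deposited table. Of 9 survival genes 2 were listed, Bcl2 (2.08) and the kinase gene Pim2 (0.72), in the authors' deposited table. Of 23 genes of the lymphocyte cytoskeleton and adhesion 4 were listed, each also for another cluster: Tmsb10 (1.27), Emb (0.95), Arhgap45 (0.87) and Coro1a (0.59), in the authors' deposited table.

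T-cells and B-cells shared 110 markers, 50% of the T-cells markers and 51.2% of the 215 B-cells markers. The B-cells cluster took 13.5% of the distinct names in the table, and 0.391% of the genes the adjustment counts. Both sets of values come from the same library, and the cells each cluster was compared with are not stated, so they are set side by side and no relation between them is tested. Of the 110 shared markers 67 were ribosomal protein genes and 43 were not. The shared genes stood at nearly the same height in both clusters, with a median of 0.88 in T-cells and 0.89 in B-cells. The T-cells value was higher for 48 and the B-cells value for 62, and 93 of the 110 differed by at most 0.25. Among the 67 ribosomal protein genes the T-cells value was higher for 25 and the B-cells value for 42. Among the 43 others these counts were 23 and 20. Only genes with an entry in both clusters, none below 0.50, enter this comparison.

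**Figure D4:**
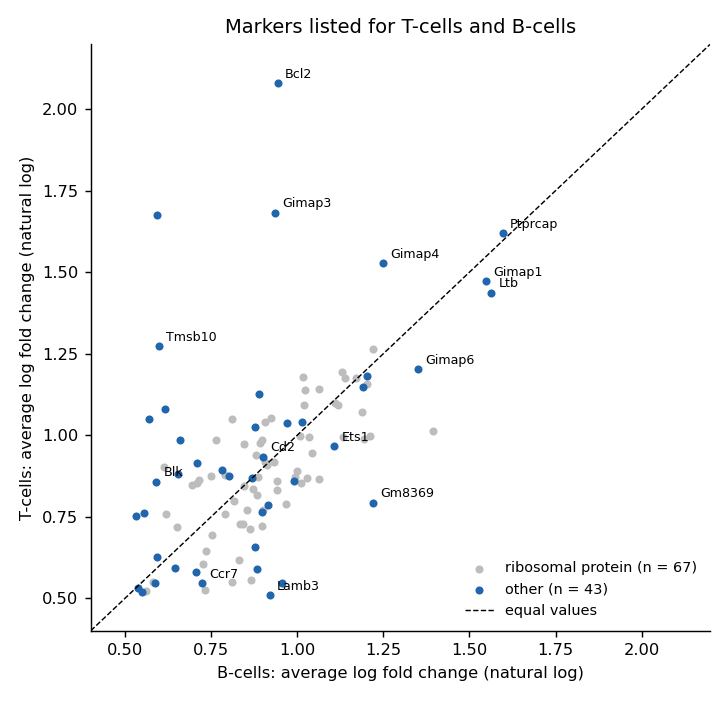
Average log fold change (natural log) of the 110 shared markers in B-cells (horizontal axis) and T-cells (vertical axis), in the authors' deposited table; grey points are ribosomal protein genes, blue points other genes, and the dashed line marks equal values. Most points lie near the line, and Bcl2 (2.08 against 0.94) and Gimap3 (1.68 against 0.93) lie above it.

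Of the shared genes that are no ribosomal proteins, the GIMAP family stood out by number. These GTPases support lymphocyte survival, and 7 of the 8 family genes searched for had a T-cells entry, all within 94.7 kb on chromosome 6 from 48676121 to 48770851 (GRCm38). Gimap3 was at 1.68 in T-cells and 0.93 in B-cells, and Gimap4 at 1.53 and 1.25, in the authors' deposited table. Gimap1 (1.47 and 1.55), Gimap6 (1.20 and 1.35), Gimap5 (0.87 and 0.80) and Gimap7 (0.58 and 0.71) were close in both clusters in the authors' deposited table. Gimap9 was listed for T-cells alone, at 0.62 in the authors' deposited table.

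The largest gap in favour of T-cells among named shared genes was that of Bcl2, with values of 2.08 and 0.94, a difference of 1.14. Gimap3 followed with a difference of 0.75 and Tmsb10, which encodes an actin-binding peptide, with 0.68 (1.27 against 0.60 in the authors' deposited table). Both names that spreadsheet software had turned into dates also fell among the 5 largest gaps, at 1.67 against 0.59 and 1.05 against 0.57 in the authors' deposited table. The largest gaps in favour of B-cells were those of Gm8369 (0.79 against 1.22), Lamb3 (0.51 against 0.92), 4930523C07Rik (0.55 against 0.96), Rps27 (1.01 against 1.40) and Rps26 (0.56 against 0.87) in the authors' deposited table.

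Among the 48 markers listed for T-cells and B-cells and no other cluster, the leading named genes after Bcl2, Gimap3, Ptprcap, Gimap4, Gimap1 and Gimap6 were Limd2 (1.18 and 1.20), Rps15a (1.18 and 1.17) and Tbc1d10c (1.08 and 0.62) in the authors' deposited table. A further 62 were listed for both and for at least 1 other cluster, and 50 of these were ribosomal protein genes.

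Ribosomal protein genes were the largest group by number. They made up 69 of the 220 markers, 31.4%, with values from 0.50 to 1.26 and a median of 0.87. The highest was Rpl12, at 1.26 in T-cells and 1.22 in B-cells in the authors' deposited table. Besides the T-cells cluster, ribosomal protein genes were markers of B-cells (73) and CAFs (55) and of 0 of the other 6 clusters. Of 7 other translation genes, elongation factors among them, 5 were shared with B-cells, such as Eef1g (1.04 and 0.97) and Eef1a1 (0.91 and 0.71) in the authors' deposited table. RNA content per cell and depth were not available for comparison between clusters, and their part in these values was not tested.

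**Figure D5:**
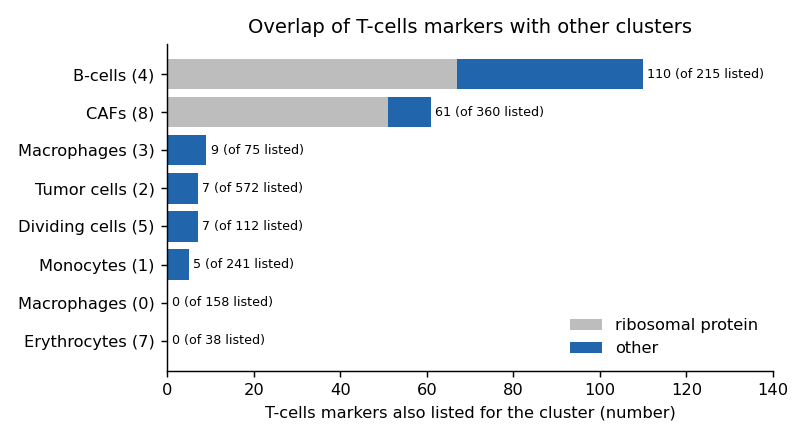
Number of T-cells markers also listed for each other cluster (horizontal axis), split into ribosomal protein genes (grey) and other genes (blue), with the number listed for that cluster. B-cells share 110 and CAFs 61, of which 67 and 51 are ribosomal protein genes, and the other clusters share at most 9.

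A further 91 markers, 41.4%, were listed for no other cluster, and 90 of them were no ribosomal proteins. Of the 70 markers at or above 1, 29 were listed for T-cells alone, which is the same share, 41.4%. Of the leading 10, 8 were listed for T-cells alone, among them Thy1 (2.18) in the authors' deposited table. The medians were less far apart, at 0.80 for markers listed for T-cells alone, 0.86 for those shared with B-cells only and 0.91 for those shared with B-cells and another cluster. The remaining 19 markers were listed for another cluster but not for B-cells. Among them were AW112010, an interferon-inducible transcript (1.82, with 0.53 in the cluster Macrophages (3)), Ramp1, a part of the receptor for the neuropeptide CGRP (1.63, with 1.06 in tumor cells), and Ccnd2, a cyclin of the G1 phase (1.46, with 1.16 in tumor cells and 0.71 in CAFs), in the authors' deposited table. By number, the overlap was largest with B-cells (110) and CAFs (61). It was 9 markers with the cluster Macrophages (3), 7 each with tumor cells and dividing cells, and 5 with monocytes. With the cluster Macrophages (0) and with erythrocytes it was 0. The shared markers were 51.2% of the 215 B-cells markers, 16.9% of the 360 of CAFs and 12% of the 75 of Macrophages (3). The last 2 shares lie near the 13.8% of distinct names that T-cells took. For dividing cells the share was 6.25%, for monocytes 2.07% and for tumor cells 1.22%.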

How the data were processed

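Per the submitters' processing notes, BWA, Picard, Cell Ranger and Seurat 2.3.4 were used with build GRCm38 (mm10). The authors deposited, per cluster, the average log fold change on what is taken to be a natural log scale, the one this Seurat version uses, with p-values and adjusted p-values, per the file headers. The p-values treat cells as replicates and were used only for the multiplier between them. The authors deposited copy number states of ascites cell groups, a score whose meaning the headers do not give. What each cluster was compared with, the cell filters and the doublet treatment are not given in the sources used here. Tumor DNA tables were not used.

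From the table, markers were counted, classed by the other clusters that list them and matched to 40 gene lists. The members and lists were chosen with earlier results of these data known. Roles were assigned, and promoter motifs chosen, after the values were seen. Genes named are the 10 leading markers, the 10 leading among those listed for T-cells alone, the 10 leading among those shared with B-cells only, the 5 largest gaps to B-cells each way, the 5 lowest and members of the lists. Others, among them AW112010, Ramp1, Ccnd2, Cst7, Cd7, Cd96, Il17re, Socs1, Socs2, Cish, Tnfrsf25, Rpl12, Eef1g and Eef1a1, were chosen after their values were seen. Of 220 names 2 were dates, and 216 were matched to a RefSeq table of GRCm38, 4 by a synonym. Counts were also made at values of at least 0.7 and 1. The counting functions were tested on simulated data. Figures were drawn with matplotlib 3.10.9, and tables were handled with pandas 2.3.3 under Python 3.11.15. Some list members are not reported here.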

Additional observations from a re-analysis of the deposited data

How the results depend on the processing

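Counts depend on the value required of a marker. At a value of at least 0.7, 156 T-cells markers were left, 77 shared with B-cells where both values had to pass, 55 listed for no other cluster and 54 members of the gene lists. At a value of at least 1 these counts were 70, 21, 29 and 35, from 220, 110, 91 and 71. Of the 25 lists with a T-cells entry, 4 had no member left at 0.7 and 7 at 1. Without ribosomal protein genes the markers shared with B-cells numbered 43, and 48 were listed for both clusters and no other. With tumor cells, CAFs and erythrocytes left out as comparators, 100 markers were listed for no other cluster. Ranking by the margin over the next cluster, with an unlisted gene taken as 0, kept 9 of the leading 10. For the 8 of them with no other entry the margin was their own value, so this ranking says little about them. Chosen after seeing the data, leaving out names turned into dates gave 218 markers and 108 shared with B-cells, and leaving out ribosomal protein genes gave 90 listed for no other cluster. Read as log2, the value of Cd3g would be a fold of 6.96 in place of 16.4. On the forward strand alone the motif shares over all genes were 22.3% for ETS, 10.2% for RUNX and 9.84% for TCF and LEF, and over windows in place of genes, an alternative added later, 35.4%, 16.8% and 16%. Ranking by shares of cells with a transcript was not run, since such shares were not used here. No paired analysis was possible because the values come from 1 library and no test. Cell numbers and depth per cluster are unknown, so no interval can be given.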

Other observations

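Among named T-cells markers that are no ribosomal proteins, 15 groups lay within 200 kb of each other on GRCm38. They included the CD3, GIMAP and CD8 genes and 3 pairs of receptor constant genes, and also neighbours of no shared family, such as Tnfrsf25 and Acot7. Ms4a4b (1.77) and Ms4a6b (1.01) lay with Gm8369 in 86.8 kb on chromosome 19, and Ptprcap (1.62) and Tbc1d10c (1.08) in 36.6 kb on the same chromosome, with values from the authors' deposited table. The number of groups was not compared with that of other clusters. Some markers listed for T-cells alone have no role on the lists, such as Fam189b (1.33), Prelid2 (1.14), the peptidase gene Klk8 (1.12), Podnl1 (1.08) and Actn2 (0.88), an actinin, in the authors' deposited table.

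The authors' deposited copy number table also holds 1 region for a group named normal_6, whose number is that of the T-cells cluster, though the headers do not say that they are the same cells. The region lies on chromosome 14 from 79481194 to 122021034 (42.5 Mb, state 4) and starts 25.3 Mb beyond Trac. It names 22 genes, of which 0 are T-cells markers and 5 are markers of other clusters. T-cells took 0.4% of the genes the adjustment counts, so 0 among 22 is near that share. The 5 draw on the markers of the 8 other clusters, so these counts are no contrast. Over the whole table the coordinates of a row lay within 5 kb of the RefSeq start of the gene named 1 row above for 96.1% of rows, and of the row's own gene for 3.26%, so positions of single genes were not taken from it. Of the 220 T-cells markers 29 (13.2%) are named in regions called in the malignant group, beside 314 of the 1596 distinct marker names of all clusters. Over the other 8 clusters the share ran from 5.26% for erythrocytes to 38.7% for Macrophages (3), with 25.9% for tumor cells and 15.3% for B-cells. No test was made of these shares.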
